A study of Homo sapiens with 4 samples.

Results

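The genes described here are 42 genes of the WNT pathway: ligands, the receptors that bind them, the proteins that secrete, block or recycle these, and the cytoplasmic and nuclear relay. They were taken by symbol from the 58233 genes of the count table, and all 42 were found. RNA-seq was done on MCF10AT, mammary epithelial cells that all carry HRasG12V as a transforming oncogene. Their medium held hydrocortisone, cholera toxin, insulin, EGF and horse serum in both groups. The 4 libraries form 2 groups of 2, one with the genotype Bromo+/- and one called non-target control. The labels do not spell out "Bromo" and name no clone, the protocols also describe lentiviral shRNA and puromycin selection, and the series title and design text speak of EP300 knockdown, in triplicates. No label says that the libraries of a group came from separate cultures, so every p-value below measures the spread between these libraries, which may be technical.

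WNT proteins are secreted lipid-modified signals. In the canonical branch a WNT binds a Frizzled receptor together with LRP5 or LRP6, Dishevelled is recruited, the destruction complex of AXIN, APC and GSK3B stops degrading beta-catenin, and beta-catenin acts on genes through TCF/LEF factors. In the non-canonical branches a WNT such as WNT5A acts through Frizzled with ROR1, ROR2 or RYK on cell polarity, the cytoskeleton and calcium. In the mammary gland WNT signals are known for ductal branching and for the upkeep of basal and stem-like cells.

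The libraries held 10835237 to 11975396 counts, and 13179 genes had enough counts to be tested. EP300 stood at 121 and 126 scaled CPM (counts divided by the effective library size) under the Bromo+/- label and at 106 and 111 CPM under the control label, so the gene named in the series title was not lower (log2 fold change 0.19, SE 0.06, edgeR adjusted p = 0.00701). Epithelial markers differed widely between the groups. All 13 tested of 14 listed were lower, where over all genes tested 27.1% were lower and 26.4% higher. The summed level of the list was 1445.5 to 1492.9 CPM against 9744.8 to 9982.7 CPM in the controls. KRT14 and OVOL1 had no count under the Bromo+/- label, so either could pass the filter on low counts only through the controls. Epithelial markers were thus found in all 4 libraries and were low where the label was Bromo+/-. Of 16 mesenchymal and fibroblast markers 10 were tested and 7 rose (summed level 5944.9 to 6114.5 against 1870.0 to 1983.5 CPM), with COL3A1 and LUM at 0 in all libraries and COL1A2 at 0 in the controls. Of 8 leukocyte markers 3 were tested and fell (6.82 to 7.74 against 25.6 to 25.7 CPM), while CD3E had no count and PTPRC, the defining leukocyte marker, 1 count over all 4 libraries. Of 8 endothelial markers 4 were tested, of which 2 rose and 1 fell (19.3 to 23.6 against 25.3 to 27.7 CPM), with VWF and ERG at 0. The part of these marker differences in the WNT results was not tested. In bulk RNA, fewer cells of a type and less RNA per cell cannot be told apart.

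Of the 42 genes, 34 passed the filter on low counts, 9 rose and 14 fell past the threshold (edgeR quasi-likelihood test, adjusted p below 0.05), and 11 did not pass. Over all genes tested 53.5% were called, 26.4% higher and 27.1% lower. A change of 2-fold or more was reached by 2 members upward (7.44% of all genes) and 8 downward (7.53% of all genes). The median log2 fold change of the tested members was -0.06, also with WNT7A set at the bound given below, beside 0.01 over all genes. WNT5A, TCF7L1 and WNT7A passed the filter through the group in which they were high, so they had to differ; the counts and the median given here include them, and both members at 2-fold or more upward are among them. When libraries were scaled by size alone, the calls over all genes were 4433 higher and 2794 lower in place of 3485 and 3570, and those among members 12 and 13. FZD8 (-0.96) and LGR4 (-0.98) were then just under 2-fold, as they were under upper quartile scaling (FZD8 at -0.99, LGR4 by less than rounding), and FZD8 was also without Bromo+/- replicate 2 (-0.88).

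**Figure D1:**
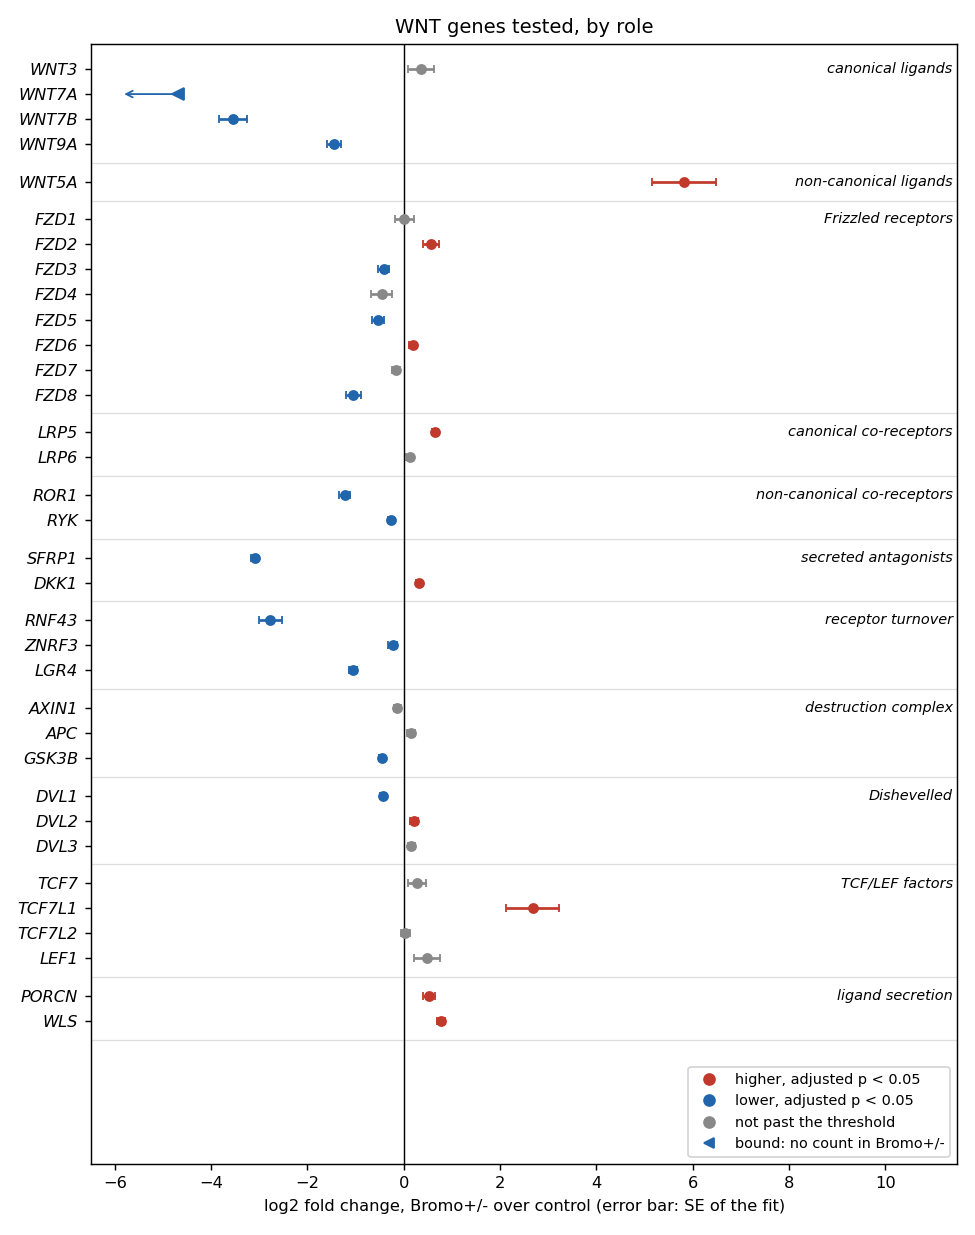
Log2 fold change (x axis) of the 34 tested WNT genes, libraries labelled Bromo+/- over control, grouped by role; points are the fitted values, bars the standard error, and the triangle for WNT7A is a bound because both libraries labelled Bromo+/- had 0 counts. WNT5A stands farthest to the right at 5.82, and most points lie within 1 of zero.

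Promoter sequences of members that rose and fell are shown to let their letters be compared. Windows of 300 bases, 250 before to 50 after a RefSeq start (GRCh38.p14), were found for 31 of the 42 genes, 40 windows in all. Both strands were searched for the TCF/LEF core as CTTTGAT or CTTTGTT, for the E-box CACCTG that ZEB and SNAIL repressors are known to bind, and for the AP-1 site TGANTCA, where N is any base. No motif in this search overlapped another in the stretches below. The 250 bases before the start are given 5′ to 3′ on the gene's strand for WNT5A (chr3:55487307-55487556, minus strand), TCF7L1 (chr2:85133142-85133391, plus strand) and DKK1 (chr10:52314031-52314280, plus strand), which rose, and for WNT7A (chr3:13880072-13880321, minus strand) and RNF43 (chr17:58417535-58417784, minus strand), which fell. Capitals mark a motif.
WNT5A: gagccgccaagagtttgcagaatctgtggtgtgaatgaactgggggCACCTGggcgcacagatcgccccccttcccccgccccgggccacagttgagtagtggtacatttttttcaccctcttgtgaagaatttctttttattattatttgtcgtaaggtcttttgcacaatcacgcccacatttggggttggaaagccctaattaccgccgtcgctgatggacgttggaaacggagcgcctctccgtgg
TCF7L1: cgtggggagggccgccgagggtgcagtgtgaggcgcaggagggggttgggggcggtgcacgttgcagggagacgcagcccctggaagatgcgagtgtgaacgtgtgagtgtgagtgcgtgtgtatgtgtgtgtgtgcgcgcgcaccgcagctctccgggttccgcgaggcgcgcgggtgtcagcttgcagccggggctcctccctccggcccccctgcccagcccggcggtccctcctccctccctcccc
DKK1: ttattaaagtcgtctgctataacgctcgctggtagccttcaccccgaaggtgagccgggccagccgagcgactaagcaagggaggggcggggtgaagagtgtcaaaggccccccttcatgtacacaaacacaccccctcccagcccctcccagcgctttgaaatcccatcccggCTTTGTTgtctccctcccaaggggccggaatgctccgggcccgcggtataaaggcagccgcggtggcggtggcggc
WNT7A: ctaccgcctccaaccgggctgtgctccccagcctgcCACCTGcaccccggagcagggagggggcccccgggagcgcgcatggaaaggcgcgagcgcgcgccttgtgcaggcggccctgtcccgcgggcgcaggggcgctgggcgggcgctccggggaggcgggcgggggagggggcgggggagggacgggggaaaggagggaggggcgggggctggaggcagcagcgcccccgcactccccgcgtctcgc
RNF43: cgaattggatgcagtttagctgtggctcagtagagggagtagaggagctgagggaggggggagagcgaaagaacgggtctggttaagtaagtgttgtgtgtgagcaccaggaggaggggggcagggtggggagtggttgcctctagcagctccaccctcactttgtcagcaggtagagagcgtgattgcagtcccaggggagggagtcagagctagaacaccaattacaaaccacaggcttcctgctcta

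The E-box CACCTG begins 204 bases before the WNT5A start and 214 bases before the WNT7A start, so the same letters stand in a gene that rose and in a gene that fell. DKK1 holds the TCF/LEF core CTTTGTT, 76 bases before its start. No searched motif lies in the stretches of TCF7L1 and RNF43. Over all member windows CACCTG was found in 6 of 40 (15.0%), against 20.6% of the 35116 windows in the table. A TCF/LEF core was found in 4 of 40 (10.0%) against 7.61%, in DKK1 and at starts inside the genes WNT3, TCF7 and TCF7L2. The AP-1 site was found in 1 window, at an inner start of RNF43 (2.50% against 7.71%). The member windows were rich in G and C, with a median of 67.0% against 58.7% over all windows, and their median ratio of observed to expected CpG was 0.82 against 0.58. The whole window of RNF43 was at 54.3% G and C with a CpG ratio of 0.25, and that of WNT5A at 56.3% with 0.88. These matches describe letters and not bound sites. The WNT5A window begins at a RefSeq start 3233 bases inside the gene as the count table lays it out, and gene counts do not show which start was used.

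WNT5A, the best known non-canonical ligand and the only one of its 4 listed with enough counts to test, rose from near zero. Of the 4 tested canonical ligands 3 fell and WNT3 did not pass, where over all genes tested 27.1% fell. Among the 3 is WNT7A, which passed the filter on low counts only through the controls. Of the further WNT ligands 2 were tested, WNT10B and WNT2B, and neither passed (log2 fold change 0.15 and -0.04). The branches were not compared by a test. WNT5A (chromosome 3, 55465715 to 55490539) had 151 and 165 counts against 1 and 4 in the controls, that is 12.3 and 14.6 against 0.0955 and 0.346 CPM. The groups lay far apart, with a log2 fold change of 5.82 (SE 0.67, edgeR adjusted p = 9.13e-46). WNT5A passed the filter on low counts only through the libraries labelled Bromo+/-. It therefore had to differ, and its p-value adds no support. The size of the fold change rests on 5 control counts: it was 5.23 without control replicate 1 and 6.97 without control replicate 2.

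WNT7A, a ligand of epithelia, had no count in either library labelled Bromo+/- and 34 and 38 counts (3.25 and 3.29 CPM) in the controls. With its summed count set to a floor of 3 it was at least 25.7-fold lower (edgeR adjusted p = 4.26e-19). WNT7A passed the filter on low counts only through the controls, so it had to differ. WNT7B, its close relative, stood at 0.978 and 1.68 CPM against 14.5 and 16.4 CPM. Both WNT7 genes were thus low in both libraries of the same group, and WNT7B fell by 3.55 on the log2 scale (SE 0.28, edgeR adjusted p = 8.27e-41). WNT9A, the most abundant ligand per length in the controls, stood at 7.34 and 6.29 against 20.9 and 16.7 CPM and fell by 1.45 on the log2 scale (SE 0.15). WNT3 did not pass, at 3.67 and 2.92 against 2.48 and 2.68 CPM (log2 fold change 0.35, SE 0.26, edgeR adjusted p = 0.253).

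The other ligands were near the limit of detection. WNT4, known in both branches, had 2 counts against 1, WNT5B, the relative of WNT5A, 1 against 1, WNT6 0 against 1, WNT10A 2 against 4 and WNT11 2 against 0. A library with no count allows up to 3 counts, or 0.245 to 0.287 CPM, by counting error alone. No difference was detectable for these 5 genes at this depth. WNT6 and WNT10A are neighbours on chromosome 2, separated by 6.13 kb, and both were at this level. WNT3 and WNT9B start 0.046 kb apart on opposite strands of chromosome 17, with 78 and 57 counts for WNT3 and no count for WNT9B. WNT9A has WNT3A as its neighbour on chromosome 1, with 161 and 412 counts for WNT9A in the 2 groups and none for WNT3A.

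Dividing scaled CPM by exon length in kilobases (kb) allows genes to be compared. The level summed over all 19 human WNT genes was 7.81 and 7.29 CPM per kb against 12.1 and 11.6 in the controls, lower in both. WNT5A made up 21.3% and 27.1% of this sum against 0.106% and 0.403%. WNT7B went the other way, with 2.48% and 4.57% against 23.7% and 28.0%. WNT9A held 23.7% and 21.7% against 43.4% and 36.2%. WNT10B, a canonical ligand outside the 42 genes, held 38.1% and 34.7% against 20.7% and 21.3%, while its own level did not pass the test (7.23 ± 0.84 against 6.54 ± 0.074 CPM, SD, n = 2 per group, edgeR adjusted p = 0.491). In the controls the order was WNT9A, WNT7B and WNT10B. In the libraries labelled Bromo+/- it was WNT10B, then WNT5A and WNT9A, whose order differs between the libraries.

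**Figure D2:**
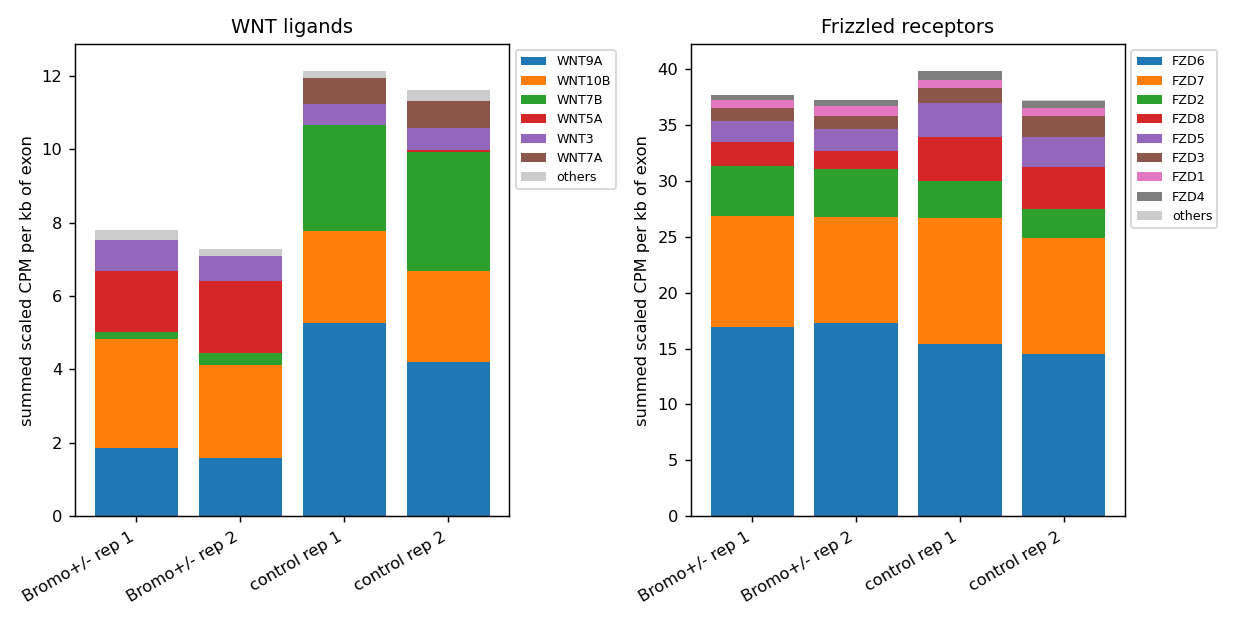
Summed scaled CPM per kb of exon (y axis) in each of the 4 libraries (x axis) for the 19 WNT ligand genes (left) and the 10 Frizzled genes (right), with the share of each gene as a coloured block. The ligand bars are lower and hold WNT5A in the libraries labelled Bromo+/-, while the Frizzled bars are of like height, 37.2 to 39.8 CPM per kb, in all 4.

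The 2 listed genes for ligand secretion rose, where over all genes tested 26.4% rose. WLS, the carrier that takes lipid-modified WNT to the cell surface, stood at 55.1 and 57.0 CPM against 32.2 and 33.3 CPM (log2 fold change 0.77, SE 0.08, edgeR adjusted p = 2.13e-17). PORCN, the enzyme that attaches the lipid, stood at 19.2 and 17.0 against 12.5 and 12.8 CPM (0.52, SE 0.13, edgeR adjusted p = 0.000159). Neither gene overlapped between the groups, which over all genes held for 75.2%. Of 10 further genes of ligand sorting and release, 1 rose, CLUAP1 (0.49), 5 fell and 4 did not pass. That is 60% called, near the 53.5% of all genes. The falls were small, with VPS29 (-0.37), VPS35 (-0.23) and TMED10 (-0.22), parts of the retromer and of early secretory transport, at the smallest p.

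The Frizzled receptors as a group had a like summed level in all libraries, while single members differed. Their summed level was 37.7 and 37.2 CPM per kb against 39.8 and 37.2 in the controls, so the groups were not apart. FZD6 and FZD7 were the most abundant in every library, with 38.7% to 46.4% and 25.4% to 28.3% of the sum. Of the 8 Frizzled members 2 rose, 3 fell and 3 did not pass, 62.5% called, which is near the 53.5% of all genes. FZD8 stood at 8.40 and 6.47 CPM against 15.9 and 15.0 CPM, a log2 fold change of -1.05 (SE 0.15, edgeR adjusted p = 5.08e-11). FZD5 stood at 12.6 and 13.6 against 20.0 and 18.1 CPM (-0.54, SE 0.12). FZD2, a receptor of WNT5A, stood at 9.54 and 9.04 against 6.97 and 5.62 CPM (0.57, SE 0.17, edgeR adjusted p = 0.00239). The per-length ratio of FZD2 to FZD8 was 2.17 and 2.67 against 0.834 and 0.717 in the controls, so their order turned around.

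The calls for FZD2, FZD3 and FZD6 depended on single control libraries and on the test, while those for FZD5 and FZD8 passed under all 12 alternatives. The call for FZD2 ended without control replicate 2 (adjusted p = 0.112, edgeR) and with the DESeq2 Wald test (adjusted p = 0.0920). FZD3 (16.7 and 16.3 against 18.2 and 25.6 CPM, log2 fold change -0.42) lost its call the same ways, and without control replicate 2 its value was -0.15. FZD6 (68.8 and 70.2 against 62.8 and 59.1 CPM, 0.19) lost its call without either control replicate, with adjusted p of 0.0561 and 0.276 (edgeR), and by the DESeq2 Wald test (0.141). FZD1 (0.01) and FZD7 (-0.15) did not pass. FZD4 (-0.46, edgeR adjusted p = 0.059) passed without control replicate 2 (adjusted p = 0.0368). It shares 1399 exon bases, 18.9% of its exons, with PRSS23 on the other strand, so its counts are uncertain.

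Among the co-receptors LRP5 rose, and ROR1 and RYK fell. LRP5, a canonical co-receptor, stood at 163 and 155 CPM against 100.4 and 102 CPM and rose (log2 fold change 0.65, SE 0.06, edgeR adjusted p = 3.69e-21). LRP6 did not pass, at 60.6 and 64.0 against 59.1 and 55.4 CPM (0.12, SE 0.07, edgeR adjusted p = 0.158), though it passed under upper quartile scaling and library size alone. LRP5 was the more abundant per length in every library, by 4.50 and 4.07 times against 2.85 and 3.08 times. ROR1, a receptor of WNT5A, stood at 12.6 CPM in both of these libraries against 26.6 and 32.1 CPM in the controls. It fell while its ligand rose, by 1.23 on the log2 scale (SE 0.12, edgeR adjusted p = 1.31e-21). RYK, an atypical kinase-like WNT receptor, stood at 79.7 and 84.8 against 99.1 and 98.1 CPM (-0.26, SE 0.07). ROR2 had 4 counts against 2, a ratio of 1.87 with an exact 95% counting interval of 0.268 to 20.7, so no difference was detectable. Per length, WNT5A was 0.890 and 1.05 times as abundant as ROR1, against 0.00327 and 0.00979 times in the controls.

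Of the 3 secreted antagonists among the members, SFRP1 fell, DKK1 rose and DKK3 had too few counts to test. SFRP1, a secreted decoy that binds WNT proteins, stood at 41.2 and 41.5 CPM against 347 and 360 CPM. The groups were far apart and the replicates close, with a log2 fold change of -3.10 (SE 0.07, edgeR adjusted p = 6.81e-128). DKK1, which blocks LRP5 and LRP6, stood at 309 and 282 against 235 and 241 CPM and rose by a small amount (0.31, SE 0.05, edgeR adjusted p = 7.44e-08). SFRP1 per length was 0.684 and 0.693 times DKK1 in the controls and 0.0618 and 0.0681 times in the libraries labelled Bromo+/-. DKK3 had 6 counts against 3, a ratio of 1.87 (95% exact binomial interval 0.400 to 11.6, counting error only).

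The 3 listed genes that set receptor turnover fell past the threshold, where over all genes tested 27.1% fell. The call for ZNRF3 was not stable. RNF43, a membrane ubiquitin ligase that removes Frizzled from the surface, stood at 2.69 and 1.42 CPM against 13.4 and 15.1 CPM (log2 fold change -2.77, SE 0.24, edgeR adjusted p = 9.61e-32). Its exons overlap 143 bases of SUPT4H1 and 1521 bases of TSPOAP1-AS1, so its counts are uncertain. SUPT4H1 had 451 to 525 counts in each library and TSPOAP1-AS1 at most 1. ZNRF3, the related ligase, stood at 26.3 and 26.6 against 28.8 and 33.1 CPM, a small fall (-0.23, SE 0.10, edgeR adjusted p = 0.0315). That call ended without either Bromo+/- replicate (adjusted p = 0.0812 and 0.0569, edgeR), without control replicate 2 (0.441), by the DESeq2 Wald test (0.217) and under upper quartile or library size scaling. LGR4, a receptor for R-spondins, which clear these ligases, stood at 29.3 and 28.4 against 61.0 and 59.3 CPM (-1.06, SE 0.08, edgeR adjusted p = 3.3e-28). The R-spondins RSPO1 to RSPO4, their receptor LGR5 and norrin (NDP), another Frizzled ligand, had 0 counts in all libraries, and LGR6 had 1 count. The per-length ratio of RNF43 to ZNRF3 was 0.0949 and 0.0495 against 0.430 and 0.424.

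**Figure D3:**
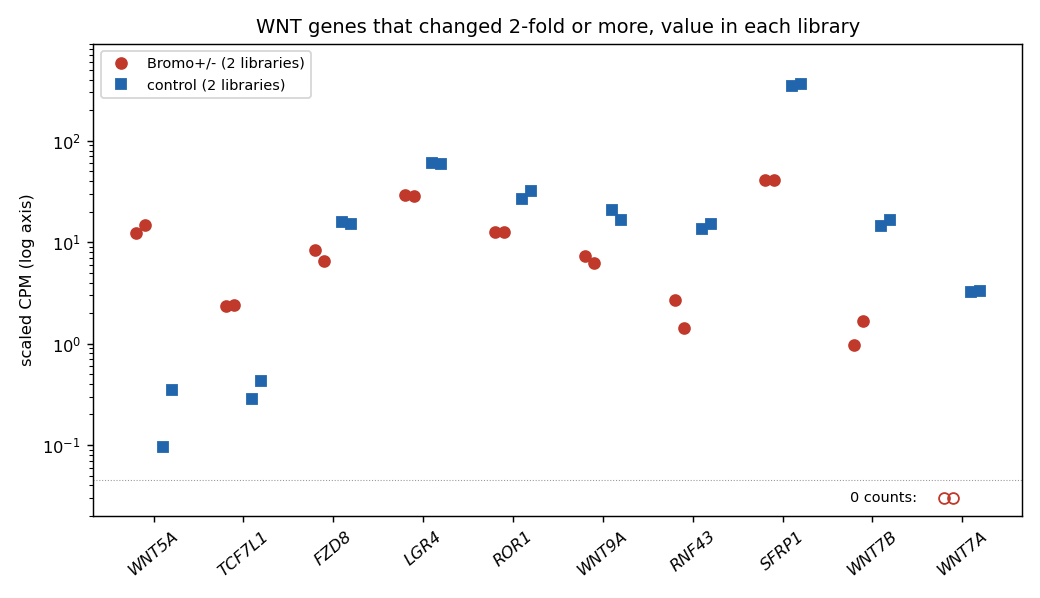
Scaled CPM (y axis, log scale) of the 10 WNT genes that changed 2-fold or more, in each library; circles are the libraries labelled Bromo+/-, squares the controls, and open circles at the bottom mark 0 counts. In every gene both circles lie on the same side of both squares, above them for WNT5A and TCF7L1 and below them for the other 8. The genes were chosen by adjusted p and size of change, so this separation follows largely from the choice. Over all genes tested the groups did not overlap in 75.2%.

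The destruction complex and Dishevelled moved little. GSK3B, the kinase of the complex, stood at 79.0 and 87.3 CPM against 108 and 118 CPM (log2 fold change -0.45, SE 0.07, edgeR adjusted p = 5.57e-10). The scaffolds AXIN1 (-0.14) and APC (0.15) did not pass, though APC passed under upper quartile scaling (adjusted p = 0.0150, edgeR) and library size alone (0.00631). AXIN2, a feedback inhibitor that beta-catenin induces, was barely detected, with 6 and 4 counts against 3 and 2. It was not tested, and 1316 of its exon bases (25.2%) are shared with another listed gene that has no count, so its counts are uncertain. DVL1, the most abundant Dishevelled gene per length, stood at 119 and 105 against 154 and 148 CPM (-0.43, SE 0.06, edgeR adjusted p = 1.31e-10). DVL2 rose by 0.21 (SE 0.09, edgeR adjusted p = 0.0423), a call lost without Bromo+/- replicate 1 (adjusted p = 0.162, edgeR), without either control replicate (0.130 and 0.213), by the DESeq2 Wald test (0.248) and without the filter (0.0909). DVL3 did not pass (0.15, edgeR adjusted p = 0.0636), but did without Bromo+/- replicate 1 (0.0208), under upper quartile scaling (0.00876) and with library size alone (0.00329). DVL1 held 63.4% and 59.6% of the summed Dishevelled level per kb against 71.2% and 70.6%.

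Among the TCF/LEF factors, TCF7L1 rose. TCF7L1, mostly known as a repressor of WNT targets, had 29 and 27 counts against 3 and 5, that is 2.36 and 2.39 against 0.287 and 0.432 CPM. The log2 fold change was 2.67 (SE 0.55, edgeR adjusted p = 3.58e-08). TCF7L1 passed the filter on low counts only through the libraries labelled Bromo+/-, so it had to differ. TCF7L2 was the most abundant factor per length in every library, with 66.9% and 70.6% of their sum against 79.6% and 77.7%, and its own level did not pass (24.0 and 30.5 against 26.4 and 26.6 CPM, log2 fold change 0.03). LEF1 (0.48, SE 0.27, edgeR adjusted p = 0.119) and TCF7 (0.27, SE 0.19) did not pass either. TCF7 shares 210 exon bases, 2.09% of its exons, with SKP1 on the other strand. SKP1 had 2312 to 2773 counts in each library, so the TCF7 counts are uncertain. TCF7L1 made up 10.1% and 8.46% of the sum, against 1.32% and 1.93% in the controls.

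Other genes of the pathway were read from lists of 201 genes, of which 137 were tested, 33 rose, 57 fell and 47 did not pass (65.7% called, beside 53.5% over all genes). Beta-catenin itself, CTNNB1, did not pass (log2 fold change -0.06). Of 27 tested cytoplasmic canonical components 6 rose, 6 fell and 15 did not pass, none by 2-fold, with the phosphatase subunit PPP2R5A (-0.60) and the kinase CSNK1G1 (0.40) at the smallest p. Of 22 tested genes listed as nuclear cofactors 7 rose and 5 fell, among them TBL1X (1.89) and the kinase HIPK2 (1.01) upward, and SOX9 (-2.02) and the co-repressor TLE4 (-1.61) downward. This list does not separate genes that aid beta-catenin from genes that oppose it. Of 11 tested further receptors 7 rose and 3 fell, with PTK7 (0.78), a polarity co-receptor, and MCAM (0.92) higher and the heparan sulfate proteoglycans SDC1 (-1.26) and SDC4 (-0.95) lower. The count of those that rose includes SDC2 (36 and 30 counts against 0 and 1) and LRP4 (22 and 14 against 5 and 2). Both passed the filter on low counts only through the libraries labelled Bromo+/-, so they had to differ. Of 9 tested further extracellular inhibitors 3 rose and 4 fell. IGFBP4, an IGF-binding protein that can also block WNT, rose by 3.91, and TRABD2A, a protease that inactivates WNT, by 1.42 on the log2 scale. DRAXIN had 28 counts against 0, at least 8.73-fold higher, and SHISA2 fell by 3.28 on the log2 scale. DRAXIN and SHISA2 passed the filter on low counts only through the group in which they were high. They therefore had to differ, and the counts of inhibitors given here include them.

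Downstream of the receptors, 17 of 32 tested genes of the planar cell polarity and calcium branch fell, 4 rose and 11 missed the threshold, 65.6% called beside 53.5% of all genes (median log2 fold change -0.20). Those that fell include VANGL2, with 6 and 2 counts against 16 and 21. VANGL2 passed the filter on low counts only through the controls, so it had to differ. PRICKLE1 (1.23 ± 0.11 against 9.51 ± 0.73 CPM, SD, n = 2 per group, log2 fold change -2.94) and PRICKLE2 (10.9 ± 0.16 against 2.78 ± 0.26 CPM, 1.97), paralogous polarity proteins, went opposite ways. CELSR2 (-1.24), an atypical cadherin of the polarity core, and DAAM1 (-1.26), a formin downstream of Dishevelled, fell, and PRKCA (1.27), a protein kinase C, rose. Of 35 listed known beta-catenin targets 11 had too few counts to test. Of these, 7 had 0 counts in all libraries, LGR5, NOTUM, APCDD1 and ASCL2 among them. Of the 24 tested targets 17 fell, 5 rose and 2 missed the threshold (median -0.57). Over all genes 27.1% fell, 26.4% rose and the median was 0.01. TNFRSF19, among the targets that fell, had 5 and 8 counts against 14 and 23 in the controls. It passed the filter on low counts only through the controls, so it had to differ. The counts and the median of the targets include it. The members with the smallest p were CDH1 (-7.33), which is also an epithelial marker, the tight-junction gene CLDN1 (-2.55), the nuclear receptor PPARD (-2.01) and PLAUR (-1.28), the urokinase receptor. CCND1 (-0.17) and MYC (-0.37), the most cited targets, fell by little, and TBX3 (1.80) and EPHB2 (1.30) rose. These are transcript levels, and signalling was not measured. Many of these targets answer to other signals too, and the list does not separate targets that beta-catenin induces from those it represses. All 13 tested epithelial markers given above were also lower, and a relation between these falls was not tested.

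**Figure D4:**
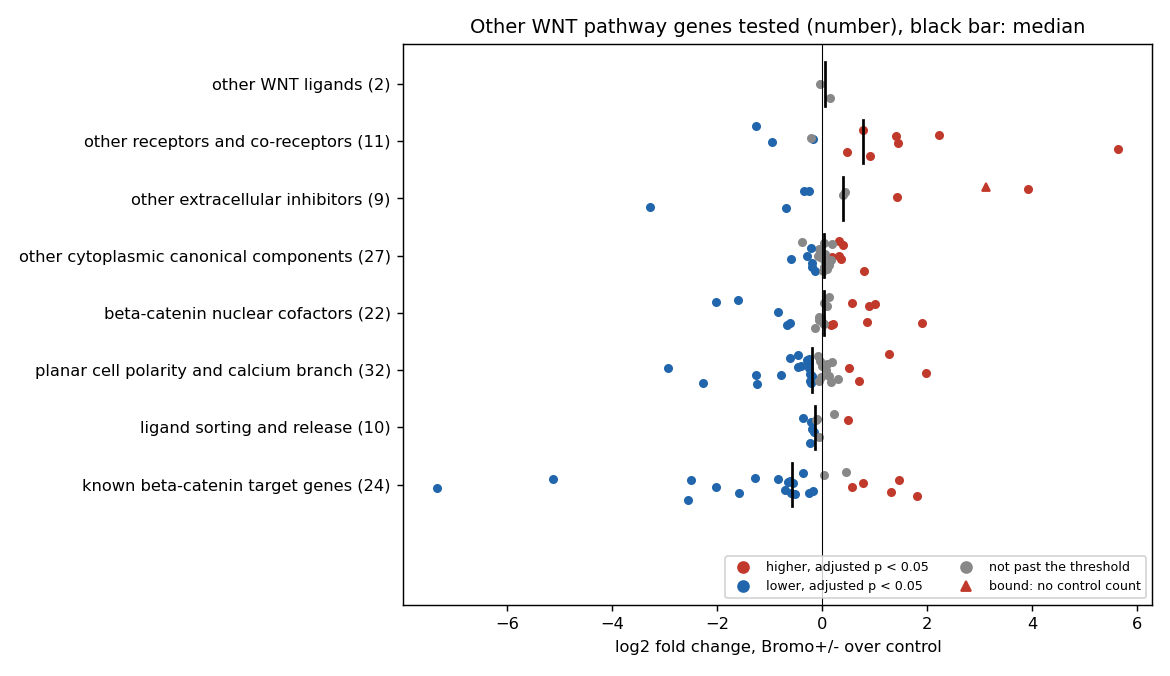
Log2 fold change (x axis), libraries labelled Bromo+/- over control, of the tested genes in 8 lists of other WNT pathway genes (y axis, number tested in parentheses); colours give the call black bars the median and the triangle a bound for DRAXIN, and the highest point among the receptors, SDC2, rests on 66 counts against 1. Cytoplasmic components lie close to zero, and the beta-catenin targets reach from -7.33 to 1.80.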

How the data were processed

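Raw read counts per Ensembl gene were deposited in one table, not normalized. Per the submitters' processing notes, the authors aligned reads with STAR to GRCh38 and counted them with featureCounts 1.5.2. Per the labels' protocols, the kit was a stranded mRNA kit, while the strand setting of the counting is not given in the sources used here, so overlapping genes may share or lose reads. The control columns carry WT in their names and were matched to the non-target control by that and the replicate number. Of 58233 identifiers, 57392 were named from current symbols, 503 from GENCODE v29 and 338 were not named.

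Genes were kept by filterByExpr and compared in R 4.3.3 with edgeR 4.0.16 (trimmed mean of M values scaling, robust quasi-likelihood test, 2 residual degrees of freedom, Benjamini-Hochberg adjustment over all 13179 genes, threshold 0.05). The alternatives included the Wald test of DESeq2 1.42.0. CPM are scaled by effective library size, and levels per kb divide by the deposited exon length. The standard error is that of the fitted coefficient. Replicates were compared first: log2 CPM correlated across genes at 0.995 in each group, and a chi-square per degree of freedom of 2.44 and 1.56 exceeded sampling noise, so all 4 libraries were kept as separate.

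The members and lists were chosen with earlier results of these data known. Full values are given for members that changed 2-fold or more and their paralogues, and up to 4 genes with the smallest adjusted p per list. CTNNB1, CCND1, MYC, TBX3, EPHB2, SDC2, PRICKLE2, WNT10B, WNT2B and the genes of small counts were added after their values were seen. Protein sequences were not used here.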

Additional observations from a re-analysis of the deposited data

How the results depend on the processing

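For 12 alternatives (3 scalings, 2 filters, the DESeq2 Wald test, a test without robust estimation, the replicate block and each library left out), 408 values of the tested members were computed. Of these, 381 kept their side of the threshold, 18 lost the call and 9 gained it. Among values called before or after the change, 0 reversed direction. Uncalled values could change sign. Without Bromo+/- replicate 2, FZD1 went from 0.01 to -0.12 and TCF7L2 from 0.03 to -0.15. Of the 23 called members 18 kept their call under all 12; DVL2, FZD2, FZD3, FZD6 and ZNRF3 did not, and APC, DVL3, FZD4 and LRP6 gained one under at least 1. Members higher numbered 9, and 6 to 9 with a library left out, 6 with the DESeq2 Wald test and 12 with upper quartile scaling or library size alone. Members lower numbered 14, and 13 to 14 with a library left out and 12 with the DESeq2 Wald test. Over all genes 7055 were called, 5551 to 6641 with a library left out and 4884 with DESeq2. With the replicate number as a block, 7271 genes were called, 10 members higher and 14 lower, DVL3 being the one added (adjusted p = 0.0381, edgeR); deviations of same-numbered libraries correlated at 0.0484, and no label says that the number marks anything shared. Depth limits WNT4, WNT5B, WNT6, WNT10A, WNT11, ROR2, DKK3 and AXIN2, the 8 members with too few counts to test.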
